A study of Canis lupus familiaris with 6 samples.

Results

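The extracellular metalloproteases and their inhibitors were followed in MDCK cells, a dog kidney epithelial line, on Agilent canine arrays. They comprise the matrix metalloproteases (MMP), the membrane disintegrin proteases (ADAM), the secreted ADAMTS proteases, the ADAMTSL proteins that resemble them without a protease domain, and the tissue inhibitors of metalloproteases (TIMP). Every non-control probe whose gene name in the scanner files is one of these prefixes followed by a number was taken, which gave 51 of 34378 gene names and 78 of 43603 probes. They divided into 28 probes for 20 MMP genes, 21 for 11 ADAM genes, 16 for 14 ADAMTS genes, 5 for 3 ADAMTSL genes and 8 for 3 TIMP genes.

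All 6 samples were the same cells, which carry mCherry-β-catenin Δ131 and a pTR GFP-RasV12 construct and are called β-cat ΔN/RasV12 cells here. The GFP-tagged RasV12, a constitutively active Ras, was induced by tetracycline for 24 h. The β-catenin, stabilised by loss of its N-terminus, was expressed from an EF1 promoter in a stably selected line. In single culture (n = 3) these cells were grown among themselves. In mix culture (n = 3) each was grown with 10 surrounding β-cat ΔN cells, which carry the β-catenin mutant without RasV12. Both cultures were on collagen type I-coated dishes, and GFP-positive cells were sorted by flow cytometry before RNA extraction. The comparison asks which transcripts of the RasV12 cells differ when their neighbours lack RasV12. The study followed MMP21 from it as a regulator of basal extrusion, the exit of transformed cells from the epithelium on its basal side.

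MMPs and ADAMTS proteases cut matrix proteins and are made as inactive precursors, many of which are opened by furin-like convertases. ADAMs mostly sit in the cell membrane, and the active ones release the outer parts of growth factors, adhesion proteins and receptors. TIMPs bind the catalytic site of these enzymes. An array measures transcripts only, not the activity of a protease, and in sorted bulk cells a smaller share of expressing cells and less RNA per cell cannot be told apart.

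The arrays lay on 2 slides that were scanned with different settings. Slide 1 held replicate 1 of each culture and slide 2 held replicates 2 and 3. Between 61.1% and 65.7% of the spots on an array were well above background, the call that the scanner software makes for a spot clearly brighter than its surroundings, and no spot was saturated. Of 11 kidney epithelial markers with a probe, 11 were well above background on all 6 arrays. The same held for 4 of 9 fibroblast, 5 of 10 leukocyte and 3 of 7 endothelial markers, and PTPRC, LYZ, DCN, COL3A1, PDGFRA and TEK were below that call on every array. Their summed signals, on the normalised log2 scale, were 8.73 to 9.04 in single and 8.42 to 8.75 in mix culture for the kidney epithelial list and 0.64 to 1.39 and 0.56 to 1.097 for the fibroblast list. They were 0.66 to 0.86 and 0.61 to 0.69 for the leukocyte list and 2.47 to 3.81 and 2.23 to 3.85 for the endothelial list. No marker was called by limma without a block, and with the slide block CDH1, CLDN4 (log2 change -0.87) and the leukocyte marker CORO1A (-0.89) were called lower in mix culture. The part of other cells in the results was not tested. The normalised log2 signal of HRAS was 6.42 ± 0.43 (SD, n = 3) in single and 5.79 ± 0.36 in mix culture (adjusted p = 0.608, limma). Single and mix arrays overlapped, but HRAS was lower in mix culture on slide 1 (-0.47) and on slide 2 (-0.70). With the slide block its log2 change of -0.62 had a 95% interval of -1.01 to -0.24. It was not called with that block either (adjusted p = 0.0648, limma). Equal HRAS signal in the 2 cultures is therefore not shown. Nothing in the labels says that the replicates were separate cultures, so the p-values measure the spread between these samples.

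The probes for 6 genes are given because the results below turn on them. Each is 60 bases long, written 5′ to 3′, with its position on CanFam3.1 as the array files give it. The position given for TIMP1 spans 59 bases, although its sequence has 60. No part is singled out with capitals. Where these positions fall relative to exons was not used here.
MMP21, chr28:34937000-34937059, minus strand: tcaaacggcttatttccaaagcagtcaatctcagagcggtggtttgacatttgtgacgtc
MMP23B, chr5:56697124-56697183, plus strand: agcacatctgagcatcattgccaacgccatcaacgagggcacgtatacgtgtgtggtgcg
MMP15, chr2:58505244-58505303, minus strand: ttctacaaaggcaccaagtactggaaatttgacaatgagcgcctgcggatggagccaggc
ADAMTS1, chr31:22171184-22171243, minus strand: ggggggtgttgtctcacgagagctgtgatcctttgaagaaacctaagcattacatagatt
ADAMTS10, chr20:53091487-53091546, minus strand: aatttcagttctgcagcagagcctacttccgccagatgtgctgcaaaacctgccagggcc
TIMP1, chrX:41205047-41205105, plus strand: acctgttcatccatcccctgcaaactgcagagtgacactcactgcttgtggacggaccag

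These genes were unevenly detected. At least 1 probe was well above background on all 6 arrays for 22 genes, on some arrays for 8 genes, and on none for 21 genes. Detection differed by class. All 3 TIMP genes, 6 of 11 ADAM genes, 6 of 14 ADAMTS genes, 6 of 20 MMP genes and 1 of 3 ADAMTSL genes were seen on all 6 arrays. The 6 MMPs were MMP2, MMP13, MMP15, MMP19, MMP23B and MMP28. The 6 ADAMs were ADAM9, ADAM10, ADAM11, ADAM15, ADAM17 and ADAM23, and the 6 ADAMTS genes were ADAMTS1, ADAMTS4, ADAMTS5, ADAMTS9, ADAMTS10 and ADAMTS13.

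By probes, 35 of 78 were well above background on all 6 arrays, 11 on some and 32 on none. Over the whole array 58.7% of probes were well above background on all 6.

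**Figure D1:**
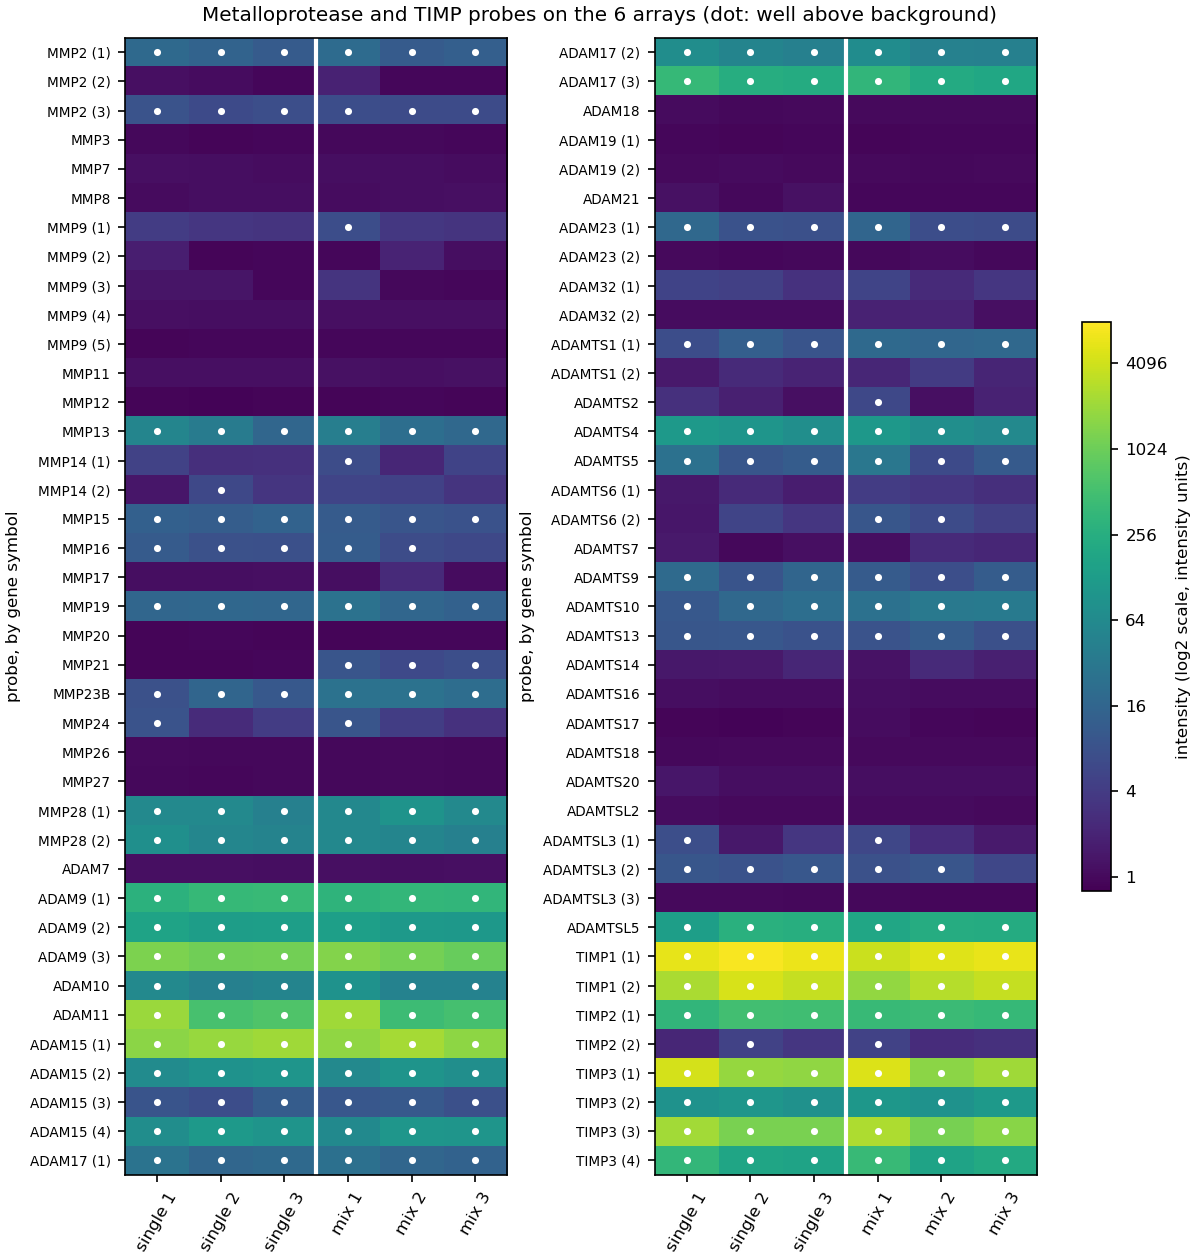
Intensity of the 78 probes (one line each, on a log2 colour scale) on the 6 arrays (columns), with a white dot where a probe was well above background. TIMP1, TIMP3, ADAM9 and ADAM15 probes carry dots on all 6 arrays, and MMP21 is the one probe with dots on the 3 mix culture arrays and on no single culture array.

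The MMPs below background on every array were MMP3, a stromelysin, MMP7, a matrilysin, MMP8, a neutrophil collagenase, and MMP11, MMP12, MMP17, MMP20, MMP26 and MMP27. Several of them are neighbours in the genome. The probes of MMP13, MMP12, MMP3, MMP8, MMP27, MMP20 and MMP7 lay within 335 kb of chromosome 5 (chr5:28859014-29194360), and of these 7 genes only MMP13 was well above background. In contrast, ADAMTS1 and ADAMTS5, which lay within 78.5 kb of chromosome 31 (chr31:22170639-22249154), were both seen on all 6 arrays.

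A few genes were near the limit of detection. MMP9, a gelatinase, has 5 probes, and 1 of them was well above background on a single array, mix 1. The intensity of that probe was 4.09, 3.40 and 3.16 in single and 7.08, 3.50 and 3.21 in mix culture. MMP14, the membrane protease that activates MMP2, had 1 array above background for each of its 2 probes, mix 1 for one and single 2 for the other. ADAMTS6 had a probe at 1.38, 5.27 and 3.38 in single and 9.57, 6.66 and 4.56 in mix culture, well above background on 2 of 3 mix arrays and on no single array. The single and mix intensities of that probe overlapped, and it did not enter the test.

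For the comparison of the cultures, log2 of the processed signal minus each array's 75th percentile, called the normalised log2 signal, was compared with limma. Testing was limited to probes whose 3 arrays of one culture, or of both, all passed the background call, and a probe was called at an adjusted p under 0.05. This left 38 of the 78 probes, for 25 genes, including 3 that were not above background on all 6 arrays (MMP21, MMP16 and 1 of the ADAMTSL3 probes). Of the 38 probes, 1 was called, MMP21, which rose, where 0.871% of all 26621 probes tested were called and 0.804% were called higher. MMP21 entered the test only through mix culture, where it was high. Its call is therefore no separate support for its rise and says nothing of the other genes. Of the 35 probes seen on all 6 arrays, none was called by limma without a block (4 at an unadjusted p under 0.05, none by the methods' t-test). Over all 26621 probes tested, 2320 had an unadjusted p under 0.05 with limma, and the methods' t-test called 8. With the slide as a block, a term that compares the cultures within each slide, 5 of the 38 were called, MMP21 included, against 7.22% of all probes. The 4 higher in mix culture were MMP21, MMP23B, ADAMTS1 and ADAMTS10, where 4% of all probes were called higher, and the 1 lower was MMP15, where 3.23% were called lower. With the replicate number as the block, 4 were called against 5.3% of all probes, the same genes without ADAMTS1.

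In direction, 28 of the 38 probes had a lower mean in mix culture, and their median log2 change was -0.15. Over all probes tested 58.0% were lower and the median was -0.05. Single and mix arrays did not overlap for 5 of the 38 probes, where 16.5% of all probes did not. In mix culture MMP21, MMP23B and ADAMTS1 lay above, as 7.84% of all probes did, and MMP15 and 1 ADAM9 probe lay below, as 8.67% did.

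**Figure D2:**
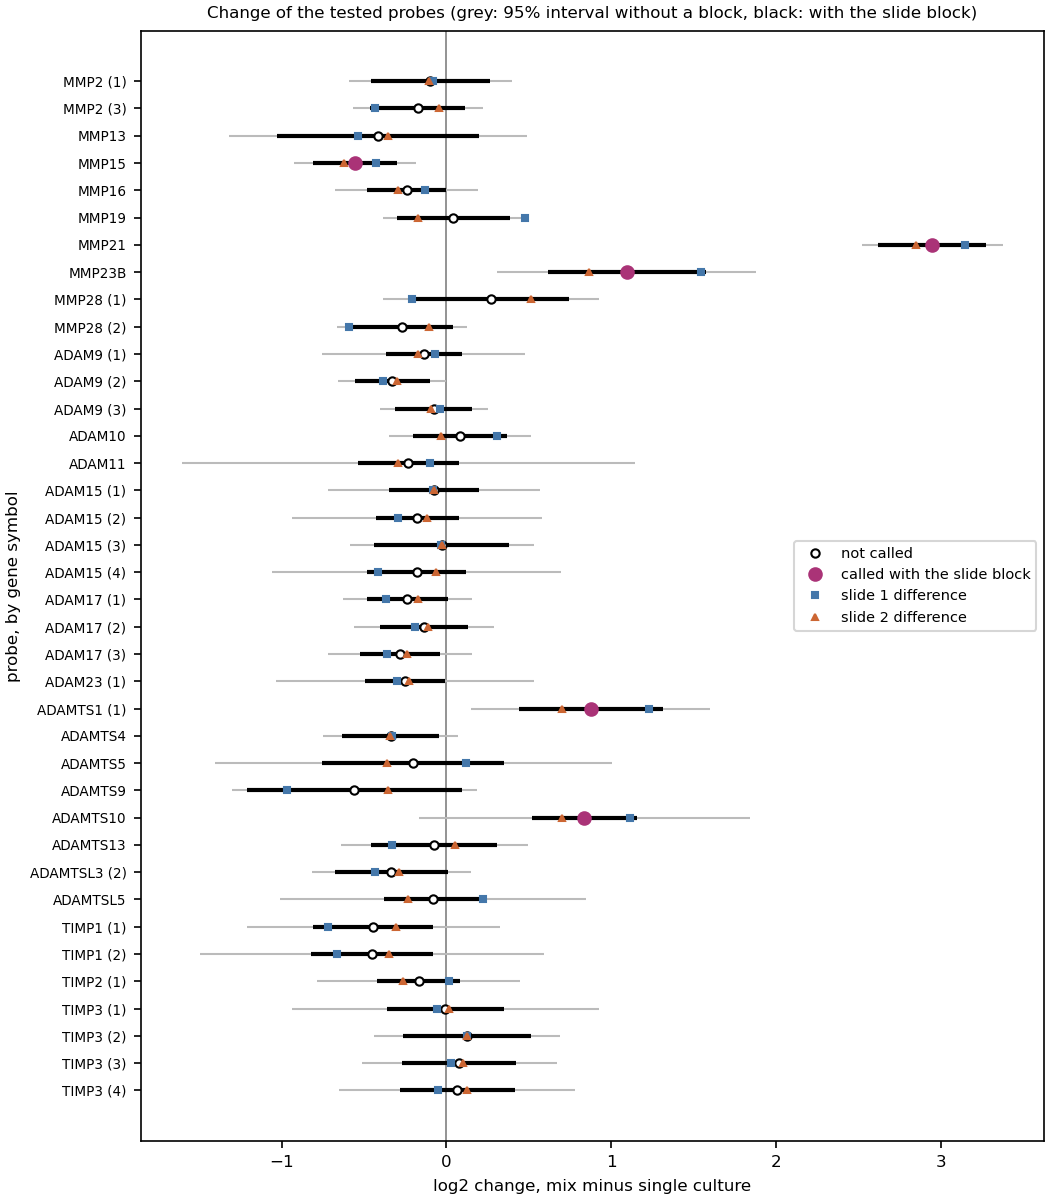
Log2 change of the 38 tested probes (mix minus single culture), with its 95% confidence interval without a block (grey) and with the slide block (black), and the differences within slide 1 (squares) and slide 2 (triangles). MMP21 lies at 2.95, MMP23B, ADAMTS1 and ADAMTS10 between 0.84 and 1.09, MMP15 at -0.56, and the other probes between -0.56 and 0.27.

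MMP21, a protease with a furin cleavage site that is known for its part in setting left-right asymmetry of the embryo, was seen in mix culture only. Its intensity was 0.912, 0.916 and 0.929 on the single culture arrays, none of them well above background. It was 9.14, 6.09 and 7.36 on the mix culture arrays, all 3 well above background. Every mix array was brighter than every single array, on both slides.

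Over the whole array, 99 of 43603 probes were well above background on all 3 mix and no single arrays, which is 0.227%, and 23 showed the reverse. MMP21 was 1 of the 99. The fitted log2 change was 2.95 (SE 0.18, adjusted p = 0.00100, limma), with 3.15 on slide 1 and 2.85 on slide 2. Because no single culture array was above background, these changes set the mix culture signal against a floor, and the fold cannot be given exactly. For the same reason the SE and p-value do not measure a spread of MMP21 expression in single culture. Taken as log2 means, the mix culture signal was 1.67-fold the dimmest signals that were well above background on the single culture arrays. This is not a strict bound, because a spot brighter than the dimmest such signal can still miss the background call. On single 2 an ADAMTS6 probe at 5.27 missed it, while the lowest intensity well above background was 4.19.

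The call on MMP21 was kept with the slide block (adjusted p = 3.28e-05) and without any one array (log2 change 2.84 to 3.06). Each of these fits uses the same single culture values at background. It was lost with normexp background correction, where the change was 0.14, and under the methods' t-test, where the adjusted p was 0.0641. MMP21 was picked by the study on these arrays, so its rise here is not independent evidence of its direction.

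**Figure D3:**
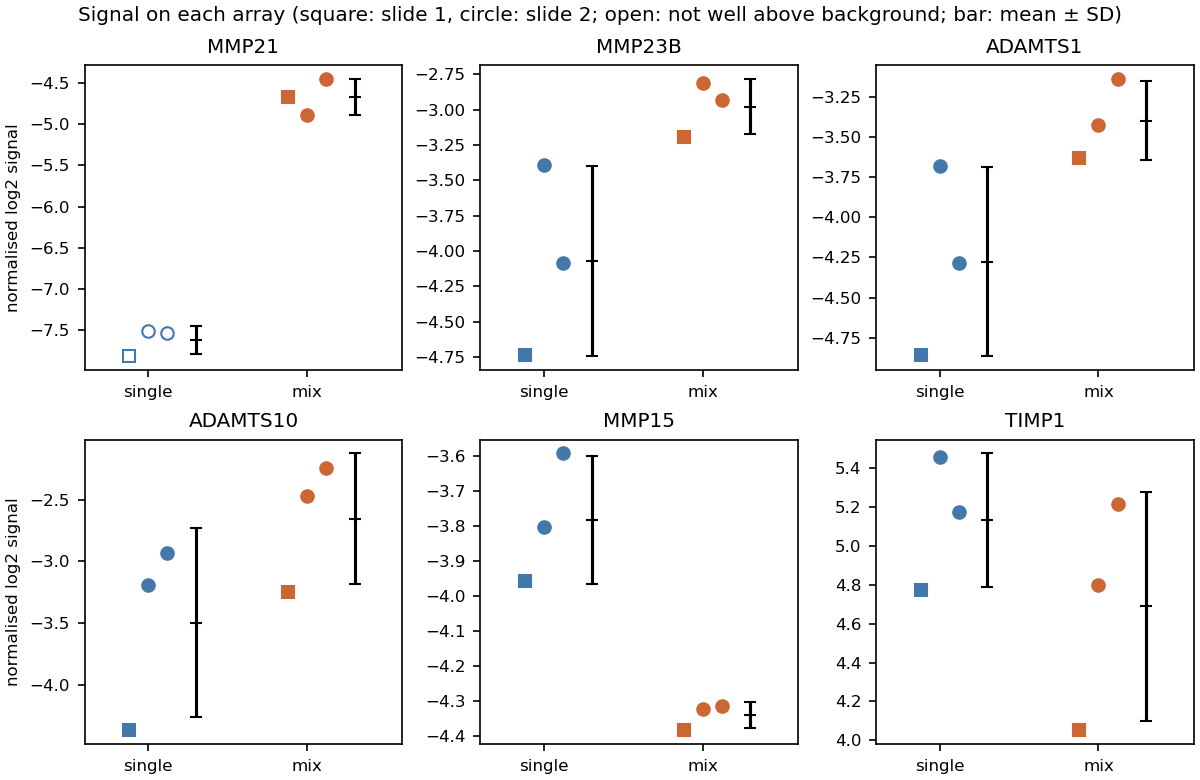
Normalised log2 signal of 6 probes on each array, by culture, with the mean ± SD of 3 arrays, where squares are slide 1, circles are slide 2, and open symbols are not well above background. The vertical scale differs between panels and does not start at 0, and single and mix arrays overlap for ADAMTS10 and TIMP1 but not for the other 4 genes. The TIMP1 panel shows the brighter TIMP1 probe, not the one whose sequence is given.

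MMP23B, a membrane-anchored MMP that lacks the usual hemopexin domain, was higher in mix culture by 2.13-fold. Its intensity was 7.73, 15.9 and 10.1 in single and 25.5, 25.7 and 21.1 in mix culture. The groups did not overlap, and the single culture arrays were the more spread. The normalised log2 signal was -4.07 ± 0.67 (SD, n = 3) against -2.98 ± 0.19, a log2 change of 1.09 (SE 0.33) that did not pass the test (adjusted p = 0.334, limma). With the slide block it did (adjusted p = 0.0209), the change being 1.54 on slide 1 and 0.87 on slide 2. That call was kept without single 2 or mix 2 and lost without single 1 (0.87), single 3 (0.96), mix 1 (0.87) or mix 3 (1.19), with adjusted p from 0.00236 to 0.102.

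MMP15, a membrane-type MMP that can cut matrix proteins at the cell surface, was lower in mix culture by 1.47-fold. The intensity was 13.3, 11.9 and 14.3 in single and 11.2, 9.03 and 8.08 in mix culture. All mix arrays were below all single arrays. The log2 change was -0.56 (SE 0.16, adjusted p = 0.283, limma), and with the slide block the adjusted p was 0.0248, the change being -0.43 on slide 1 and -0.62 on slide 2. That call was kept only without single 2 (-0.60), and without single 1 (-0.62), single 3 (-0.48), mix 1 (-0.62), mix 2 (-0.54) or mix 3 (-0.54) the adjusted p was 0.0540 to 0.113.

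A second probe described as MMP15 is listed under a transcript cluster name and so lies outside the 78. Its intensity was 4609, 3568 and 4007 in single and 2445, 2718 and 2273 in mix culture. It moved the same way, and its groups did not overlap. The log2 change was -0.77 (SE 0.18, adjusted p = 0.174, limma), and with the slide block the adjusted p was 0.0121. This call was lost without single 3 (-0.79, adjusted p = 0.0640) or mix 3 (-0.79, adjusted p = 0.0511).

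The other MMPs did not pass the test with or without the slide block. MMP13, a collagenase, had intensities of 52.5, 37.4 and 16.9 in single and 41.0, 22.2 and 17.7 in mix culture, and the groups overlapped (log2 change -0.41, 95% interval -1.32 to 0.49). The 2 MMP2 probes above background, for the gelatinase that cuts collagen type IV, had log2 changes of -0.10 and -0.17. MMP19 had a log2 change of 0.04, with 0.47 on slide 1 and -0.17 on slide 2, and MMP16, a membrane-type MMP, one of -0.24. The 2 probes of MMP28, known as epilysin, disagreed in sign (0.27 and -0.27).

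Among the ADAMTS proteases, ADAMTS1 and ADAMTS10 were higher in mix culture. ADAMTS1, which cuts the proteoglycans aggrecan and versican, had intensities of 7.09, 13.0 and 8.84 in single and 18.8, 16.8 and 18.2 in mix culture. The groups did not overlap. The log2 change was 0.88 (SE 0.31, adjusted p = 0.450, limma), and with the slide block the adjusted p was 0.0326, the change being 1.23 on slide 1 and 0.70 on slide 2. That call was kept without single 2 or mix 2 and lost without single 1 (0.70), single 3 (0.75), mix 1 (0.70) or mix 3 (0.84), with adjusted p from 0.00809 to 0.152. The other ADAMTS1 probe, at 1.51 to 3.90, was not well above background on any array, so the 2 probes could not be compared.

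ADAMTS10, which is known to bind fibrillin microfibrils, had intensities of 10.0, 18.3 and 22.7 in single and 24.5, 32.6 and 34.0 in mix culture. On each slide every mix array was brighter than every single array, but after scaling the mix array of slide 1 fell below the 2 single arrays of slide 2. The log2 change was 0.84 (SE 0.43, adjusted p = 0.693, limma), with 1.11 on slide 1 and 0.70 on slide 2, and 0.0116 was the adjusted p with the slide block. That call was kept without single 2, single 3 or mix 2 and lost without single 1 (0.70), mix 1 (0.70) or mix 3 (0.81), where the adjusted p was 0.0568 to 0.0581.

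No other ADAMTS or ADAMTSL gene passed with or without the slide block. ADAMTS9, which cuts versican, had intensities of 19.7, 8.69 and 16.2 in single and 11.4, 7.38 and 11.8 in mix culture, and the groups overlapped (log2 change -0.56, 95% interval -1.30 to 0.19). The aggrecanase ADAMTS4 was at 118, 96.8 and 76.5 in single and 107, 74.8 and 62.2 in mix culture, a log2 change of -0.34. The aggrecanase ADAMTS5, the chromosome 31 neighbour of ADAMTS1, was at 25.3, 9.39 and 11.8 against 31.0, 6.27 and 10.8. Its high values were the replicate 1 arrays of both cultures, and its log2 change was -0.20, with 0.12 on slide 1 and -0.36 on slide 2. ADAMTS13, which cuts von Willebrand factor, had a log2 change of -0.08, as did ADAMTSL5, and the ADAMTSL3 probe tested had one of -0.33.

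None of the 13 ADAM probes tested was called by limma with or without the slide block (1 at an unadjusted p under 0.05, none by the methods' t-test). A missing call does not show equal expression. Over all probes tested 0.871% were called without a block and 7.22% with the slide block. Of the 13 ADAM probes, 12 had a lower mean in mix culture, and the median log2 change was -0.18, where 58.0% of all probes were lower and their median was -0.05. ADAM10, a sheddase of Notch and cadherins, was at 61.9, 44.7 and 51.6 in single and 86.9, 46.8 and 47.7 in mix culture, a log2 change of 0.08 (95% interval with the slide block -0.20 to 0.37). The high value was mix 1, and the intensities of the remaining mix arrays lay within the single culture range.

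ADAM17, which releases TNF and ligands of the EGF receptor, had log2 changes of -0.24, -0.14 and -0.28 at its 3 probes. The changes of the 3 ADAM9 probes were -0.14, -0.33 and -0.08. The middle probe was at 166, 136 and 141 in single and 143, 119 and 108 in mix culture and did not overlap after scaling, with an adjusted p of 0.0874 with the slide block. All 4 ADAM15 probes were between -0.18 and -0.03. Of the ADAMs without an active protease site, ADAM23 had a log2 change of -0.25 and ADAM11 one of -0.23.

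For ADAM11 the slides mattered far more than the culture. Its intensity was 2007, 558 and 634 in single and 2121, 449 and 528 in mix culture. The high arrays were replicate 1 in both cultures, and slide 2 was lower by 1.57 on the log2 scale. Between the slides 19 of the 38 probes were called, where 47.2% of all probes tested were. The cultures were represented on both slides.

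**Figure D4:**
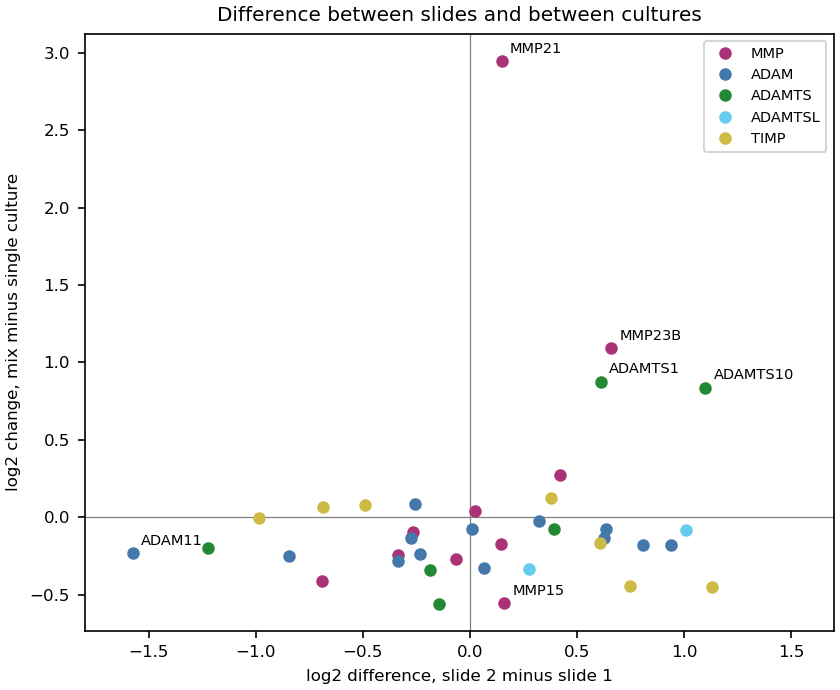
Log2 difference between slides (horizontal, slide 2 minus slide 1) against the log2 change between cultures (vertical, mix minus single) for the 38 tested probes, coloured by class. Most probes spread along the horizontal axis, from ADAM11 at -1.57 to TIMP1 at 1.13, while MMP21 lies at 2.95 on the vertical axis and near 0 on the horizontal one.

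None of the 7 TIMP probes tested was called by limma with or without the slide block, none had an unadjusted p under 0.05 without it, and none was called by the methods' t-test. The shares called over all probes tested were 0.871% without a block and 7.22% with the slide block. TIMP1, which inhibits most secreted MMPs, was lower in mix culture at both of its probes. The probe shown above was at 2500, 4517 and 3610 in single and 1788, 2915 and 3500 in mix culture, and the other was at 5624, 7314 and 6219 against 3864, 5037 and 5983. Single and mix arrays overlapped. The log2 changes were -0.45 (SE 0.44, adjusted p = 0.893, limma) and -0.44 (SE 0.33, adjusted p = 0.830), lower on slide 1 (-0.66 and -0.72) and on slide 2 (-0.35 and -0.31). With the slide block both adjusted p-values were 0.130, and the 95% intervals were -0.82 to -0.08 and -0.81 to -0.08.

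TIMP2, which also takes part in the activation of MMP2, was at 350, 494 and 473 in single and 400, 433 and 380 in mix culture. The groups overlapped, and the log2 change was -0.17. TIMP3, a matrix-bound inhibitor that also acts on ADAM17, had 4 probes with log2 changes of -0.01, 0.12, 0.08 and 0.07. Its probe with the highest mean was at 4457, 1876 and 1744 in single and 4849, 1606 and 2115 in mix culture, so that the replicate 1 arrays were the high ones in both cultures. Its 95% interval was -0.36 to 0.35 with the slide block.

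The array holds 19 more probes that their descriptions, but not their names, place in these families. They belong to 15 genes, of which 5 are among the 51 and 10 are not. Of the 19 probes, 9 could be tested, and none was called without a block (limma, 1 at an unadjusted p under 0.05, none by the methods' t-test). With the slide block 1 was called, the MMP15 probe above. The shares over all probes tested were 0.871% and 7.22%. The additional probes of ADAM10 and ADAM9 had log2 changes of -0.09 and -0.18, and those of ADAMTSL1 and ADAMTSL4 had changes of 0.00 and -0.19.

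Proteins that act on metalloproteases were examined from a list of 22 that holds convertases, tetraspanins, inhibitors, plasminogen activators and membrane proteins that bind or carry proteases, of which 17 could be tested with 1 probe each. PLAU, the urokinase that activates plasminogen, was the 1 gene called, where 0.860% of all gene names tested were, and it fell. Its intensity was 238, 176 and 223 in single and 116, 44.3 and 53.2 in mix culture, and the groups did not overlap. The log2 change was -1.77 (SE 0.27, adjusted p = 0.0355, limma). Without single 1, single 2, single 3, mix 2 or mix 3 the adjusted p was 0.0854 to 0.198 and the change -1.84 to -1.53, and without mix 1 it was 0.0117. The call was also lost without a filter on dim probes (adjusted p = 0.0532) and under the methods' t-test (adjusted p = 0.248), and with the slide block the adjusted p was 0.00216.

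The slide block called 4 of the 17, where 7.28% of all 19645 gene names tested were called. TSPAN5, a tetraspanin that carries ADAM10 to the cell surface, was higher. Its intensity was 729, 605 and 542 in single and 2096, 1315 and 999 in mix culture, a log2 change of 1.11 (SE 0.19, adjusted p = 0.0549, and 0.00256 with the slide block, limma). TSPAN5 stayed called with the slide block when any one array was left out. PCSK5, a furin-like convertase, had a change of 0.77 and was called with the slide block (adjusted p = 0.0370), a call kept only without mix 2. SDC1, the cell surface proteoglycan syndecan-1, had a change of -0.68 (adjusted p = 0.0288 with the slide block), a call kept only without mix 3. Without each other array in turn, the changes were 0.58 to 0.78 for PCSK5 and -0.73 to -0.52 for SDC1. The list's median log2 change was -0.12, and that of all gene names tested was -0.06.

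Of 21 membrane substrates of ADAM sheddases tested, none was called without a block (limma; 4 at an unadjusted p under 0.05, none by the methods' t-test), and 3 were called with the slide block. The shares over all gene names tested were 0.860% and 7.28%. CXCL16, a membrane-bound chemokine, was higher, at 1005, 1124 and 1178 in single and 2367, 2042 and 1848 in mix culture (log2 change 0.85, adjusted p = 0.135, and 0.00394 with the slide block). EREG, the EGF receptor ligand epiregulin, was lower, at 610, 284 and 312 against 228, 167 and 182 (log2 change -1.05, adjusted p = 0.160, and 0.0129 with the slide block). Neither gene's groups overlapped. CXCL16 was called with that block without any one array, and EREG was called except without single 3 (-1.11, adjusted p = 0.0584). CDH1, the adhesion protein E-cadherin and also a kidney epithelial marker, had a log2 change of -0.47 and an adjusted p of 0.0444 with the slide block, a call lost without any one array (adjusted p = 0.0759 to 0.181). CDH2, N-cadherin, had a log2 change of -1.23 with overlapping groups (adjusted p = 0.540).

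In the study's assay the catalytic domain of MMP21 cut collagen type I, collagen type IV and fibronectin, while laminin resisted it. Of 14 matrix proteins tested, of the kinds the study incubated with that domain, none was called without a block (limma, 2 at an unadjusted p under 0.05, none by the methods' t-test). LAMB3, the β3 chain of laminin, was called with the slide block, a share near the 7.28% of all gene names. Its log2 change was -0.56 (adjusted p = 0.559, limma, and 0.0447 with the slide block), a call kept only without single 3 (-0.69), and without each other array the change was -0.62 to -0.46. Of 7 genes tested from a list of other zinc proteases of the cell surface and matrix and of procollagen protease enhancers, none was called by limma with or without the slide block, at an unadjusted p under 0.05 without it, or by the methods' t-test. The medians of the substrate, matrix and zinc protease lists were 0.04, -0.19 and -0.01. In the last list the largest changes were -0.24 for ECE2, an endothelin-converting enzyme, and 0.23 for PCOLCE, one of those enhancers.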

How the data were processed

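Total RNA of the sorted cells was labelled with Cy3 and hybridised to Agilent Canine 4x44K arrays. The intensity that the authors deposited for each spot, in 1 file per array, had its background subtracted by Agilent Feature Extraction (11.5.1.1 for slide 1, scanned at 3 µm, and 12.1.1.1 for slide 2, at 5 µm). They also deposited a table of log2 values, in which each column's median was 0 and whose steps are not given in the sources used here. Its columns for mix replicates 2 and 3 matched each other's scanner file (r = 0.999 and 0.993) and not their own (r = 0.457 and 0.459). It served as an alternative.

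Control spots and outlier spots (5 to 9 per array) were left out and spots of one probe averaged. The 75th percentile of each array (intensity 161 to 233) was subtracted on the log2 scale. The lowest intensity well above background was 4.19 to 4.48. limma 3.58.1 (R 4.3.3; lmFit, eBayes, two-sided) was run over 26621 probes with Benjamini-Hochberg adjustment, after tests on simulated data. The study's unpaired design gave the fit without a block. Same-numbered samples deviated together (r = 0.801, 0.530 and 0.572), but other numbers within slide 2 did so more than the same numbers there (r = 0.610 and 0.632). These values do not tell pairing by number from a shared slide. The number was used as a block and the slide as another. For a probe not above background in a culture, the mean of the other culture was set against the mean of each array's dimmest signal well above background. The resulting fold is a guide and not a strict bound. With 6 arrays, their number limits the precision.

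The members and lists were chosen with earlier results of these data known. Named were MMP21, every TIMP, members called with or without the slide block, the 8 largest rises and falls by gene among probes above background on all 6 arrays, ADAMTS and ADAMTSL genes seen on all 6 arrays, HRAS, and called genes plus the 2 largest changes of each list. One gene that this rule names is not reported here. Genes called with the slide block in the lists, the genes near the limit of detection, ADAM15, ADAM11, MMP2, MMP16, ADAMTSL3 and probes under other names were added after their values were seen. In each list 1 probe per symbol was used, that with the highest mean. Gene names are those of the array files, and 50 of the 51 symbols are in the RefSeq table of UU_Cfam_GSD_1.0. Protein sequences were not analysed here.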

Additional observations from a re-analysis of the deposited data

How the results depend on the processing

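Over all probes tested, 232 were called, and 1923 with the slide block, 1411 with the replicate block, 1459 with that block and mix replicates 2 and 3 exchanged, 143 among probes above background on all 6 arrays, 101 with normexp, 4077 from the authors' table, 8 with the methods' t-test and 997 on slide 2 alone. Leaving out each array gave 91 to 247, and 692 to 1512 with the slide block too (a combination chosen after seeing the data). Called metalloprotease and TIMP probes numbered 1, and 5, 4 and 5 with the slide, replicate and exchanged blocks, 7 from the authors' table (with ADAM9 and ADAM17), 1 to 1 without each array and 1 to 5 with the slide block too. They numbered 0 under the all-6 filter, which leaves out MMP21, and 0 with normexp and the methods' t-test. MMP21 changed by 0.135 with normexp, whose offset of 50 exceeds its intensity, and by 2.95 with the t-test (adjusted p = 0.0641).

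The regulators had 4 calls with each of the slide, replicate and exchanged blocks, 0 without a filter, 2 with quantile normalization, 6 from the authors' table, 0 with the t-test, 2 on slide 2 alone, 0 to 1 without each array and 2 to 3 with the slide block too. The matrix proteins had 1 with the slide block, 3 from the authors' table, and 0 to 1 with the slide block without each array. The sheddase substrates had 3, 2 and 2 with the slide, replicate and exchanged blocks, 6 from the authors' table, 2 on slide 2 alone and 1 to 3 with the slide block without each array. Shares over all gene names are given here only for the fits without a block (0.860%) and with the slide block (7.28%). The other list counts show how calls move with the processing and are not results about the lists.

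The sign turned on slide 2 alone for ADAM10 (-0.031), ADAMTS13 (0.051), MMP19 (-0.17) and TIMP3 (0.018), with normexp for MMP19 (-0.049) and TIMP3 (0.00011), and with quantile normalization (0.060) and the authors' table (0.060) for TIMP3. Over the fits without each array, with and without the slide block, the changes spanned 0 for ADAM10 (-0.060 to 0.20), ADAM23 (-0.52 to 0.042), ADAMTS13 (-0.29 to 0.12), ADAMTS5 (-0.69 to 0.28), ADAMTSL5 (-0.49 to 0.18), MMP19 (-0.17 to 0.13), TIMP3 (-0.32 to 0.33), ECE2 (-0.53 to 0.040) and PCOLCE (-0.18 to 0.55). None of these was called by limma without a block, and causes were not tested. Signal over background limits the 32 probes dim on every array.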

Other observations

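MMP1, the interstitial collagenase, is on the array under a locus name at chr5:28979838-28986199 (CanFam3.1), within the chromosome 5 cluster, and was examined after its values were seen. The brighter of its 2 probes was at 145, 8.17 and 30.6 in single and 83.0, 161 and 55.5 in mix culture. Replicate 1 was lower in mix culture by 0.99 on the log2 scale, and the arrays of slide 2 were higher in mix culture by 2.57. The other probe was at 31.0, 1.00 and 7.55 in single and 18.1, 39.4 and 11.9 in mix culture, with -0.95 on slide 1 and 2.97 on slide 2. Its single 2 value was not well above background, so the differences that include it are not exact. The single culture arrays were the more spread at both probes, with an SD of 1.92 and 2.35 on the log2 scale, and single 2 was the lowest array of all. The log2 changes, 1.39 and 1.66, did not pass the test (adjusted p = 0.793 and 0.794, limma, and 0.285 and 0.297 with the slide block). Without single 2 the changes were 0.44 and 0.41, without mix 2 they were 0.94 and 1.15, and without single 1 they were 2.36 and 2.73. Whether the culture change differed between the slides was not tested.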
